A study of Mus musculus with 20 samples.

Results

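Inhibitory receptors and checkpoint ligands of microglia were followed across non-injured and injured mouse spinal cord. The members were 10 listed gene symbols, and 9 of them were found in the first column of the table, which holds 16810 genes. The remaining one, *Pirb*, stands there only under its older symbol *Lilrb3* and is described separately. The microglia were eGFP-high cells sorted from a thoracic cord segment around the lesion, or from the matching segment in controls, and their polyadenylated RNA was sequenced in 20 samples. All 7 groups came from adult male mice on a C57BL/6 background that carried eGFP in place of 1 of the 2 copies of *Cx3cr1* (genotype CX3CR1+/eGFP). The groups were non-injured (NI, 3 samples), lateral hemisection (HS) at 72 h (3 samples), 1 week (2 samples) and 2 weeks (3 samples), and full transection (FT) at 72 h, 1 week and 2 weeks (3 samples each), with the injury at the thoracic level. The reporter also marks peripheral monocytes, RNA was prepared from many more mice than there are samples, and the labels tie no sample to an animal, so p-values measure the spread between these samples.

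Inhibitory receptors sit on the surface of myeloid cells and dampen activating signals, in most cases through tyrosine motifs in the cytoplasmic tail that recruit the phosphatases encoded by *Ptpn6*, *Ptpn11* and *Inpp5d*. Their ligands are displayed by neighbouring cells: sialic acid for the siglecs, *Cd47* for *Sirpa*, *Cd200* on neurons for *Cd200r1*, and major histocompatibility complex proteins for *Pirb* and *Lag3*. Checkpoint ligands work in the other direction, since *Cd274* (PD-L1) and *Pdcd1lg2* (PD-L2) on a myeloid cell engage the receptor encoded by *Pdcd1* on T cells and on myeloid cells themselves.

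The values are normalized read counts, made by the authors and taken as CPM. Depth ranged from 3.87 to 34.1 mega-reads per sample on the genes of the table (median 10.1 mega-reads). Differentially expressed (DE) genes had a Benjamini-Hochberg adjusted p-value under 0.05 in limma on log2(CPM + 0.5) and a change of at least 2-fold. Fold changes are given on that log2 scale, which understates changes of low genes, and the 6 comparisons with NI share the same NI samples. Microglia markers (12 of 12 in the table, *Cx3cr1*, *P2ry12* and *Tmem119* among them) summed to between 19762 and 41421 CPM per sample. In bulk RNA, fewer cells of a type and less RNA per cell cannot be told apart. A set of 8 libraries stood apart from the other 12 by low *Rpl13*, which encodes a ribosomal protein: all 8 lay at or below 335 CPM, and the others at or above 671 CPM. Each group held 1 such library, except FT 1 week, which held 2. In addition, replicate 1 of FT 1 week had the lowest value of all 20 samples for *Cd33*, *Siglece*, *Cd200r1*, *Havcr2* and *Lilrb3*.

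The sequences before the RefSeq start sites of the 3 members that passed the test are shown to allow their letters to be compared. Each window holds the 250 bases upstream of the RefSeq start on GRCm38.p6, read 5′ to 3′ on the strand of the gene, and 7 of the 10 members had such an entry. Capitals mark matches, on either strand, to GAAANNGAA (letters of an interferon regulatory factor pair), TTCNNNGAA (the letters read by STAT factors) and GAGGAAG (letters read by the myeloid factor encoded by *Spi1*).
Cd22, chr7:30879029-30879278, minus strand: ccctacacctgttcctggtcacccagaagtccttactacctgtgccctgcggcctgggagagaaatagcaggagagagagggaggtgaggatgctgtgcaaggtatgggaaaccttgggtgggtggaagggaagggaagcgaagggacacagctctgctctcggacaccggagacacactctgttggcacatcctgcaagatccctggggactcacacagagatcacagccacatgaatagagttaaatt
Siglece, chr7:43660162-43660411, minus strand: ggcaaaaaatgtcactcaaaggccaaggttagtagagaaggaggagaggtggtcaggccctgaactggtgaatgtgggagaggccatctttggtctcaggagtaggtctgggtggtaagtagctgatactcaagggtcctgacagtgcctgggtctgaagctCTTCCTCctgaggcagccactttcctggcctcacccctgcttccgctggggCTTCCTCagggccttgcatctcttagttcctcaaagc
Cd274, chr19:29367188-29367437, plus strand: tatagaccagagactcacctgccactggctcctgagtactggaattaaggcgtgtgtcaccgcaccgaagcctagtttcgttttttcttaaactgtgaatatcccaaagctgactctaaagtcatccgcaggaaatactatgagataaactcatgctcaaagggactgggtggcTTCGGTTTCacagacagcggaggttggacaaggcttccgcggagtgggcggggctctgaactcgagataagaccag

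*Cd274* held 1 match to GAAANNGAA and was the only 1 of the 7 windows that did, against 7.13% of 32851 windows in the RefSeq table. TTCNNNGAA was in 0 of 7 windows, against 7.02% of all windows. GAGGAAG was in 4 of 7 (*Pirb*, *Cd33*, *Siglece* and *Havcr2*), with 2 matches in *Siglece*, against 10.6% of all windows. The window of *Cd22* held none of the 3, but it lies inside the GENCODE span of the gene (30865402 to 30880342), downstream of the GENCODE start. Such matches describe letters and are not sites of binding.

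*Cd22* rose after both injuries and went on rising with time. *Cd274* rose by less than 2-fold at 72 h and by more at 1 and 2 weeks. *Siglece* lay below NI in every injured sample, near the 2-fold limit. By limma with all samples it was DE only at 1 and 2 weeks after FT, though FT and HS did not differ by the test. Which times were DE changed with the settings. *Lag3* had the widest spread between samples of the same group among 14051 genes. The other 5 members found by symbol did not pass the test against NI at any time. At 72 h, 1 of the 9 members was DE after HS, where 13.4% of all genes were DE, and 1 of 9 after FT, where 12.2% were. At 1 week the counts were 2 of 9 after HS (2.18% of all genes) and 3 of 9 after FT (4.05%). At 2 weeks they were 2 of 9 after HS (3.23%) and 3 of 9 after FT (4.88%). Without the 2-fold limit, 3 of 9 members passed the adjusted p at 72 h after each injury, against 27.3% of all genes after HS and 24.2% after FT. The median log2 fold change of the 9 members lay between 0.10 and 0.37 over the 6 comparisons, and that of all genes between -0.11 and 0.02.

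**Figure D1:**
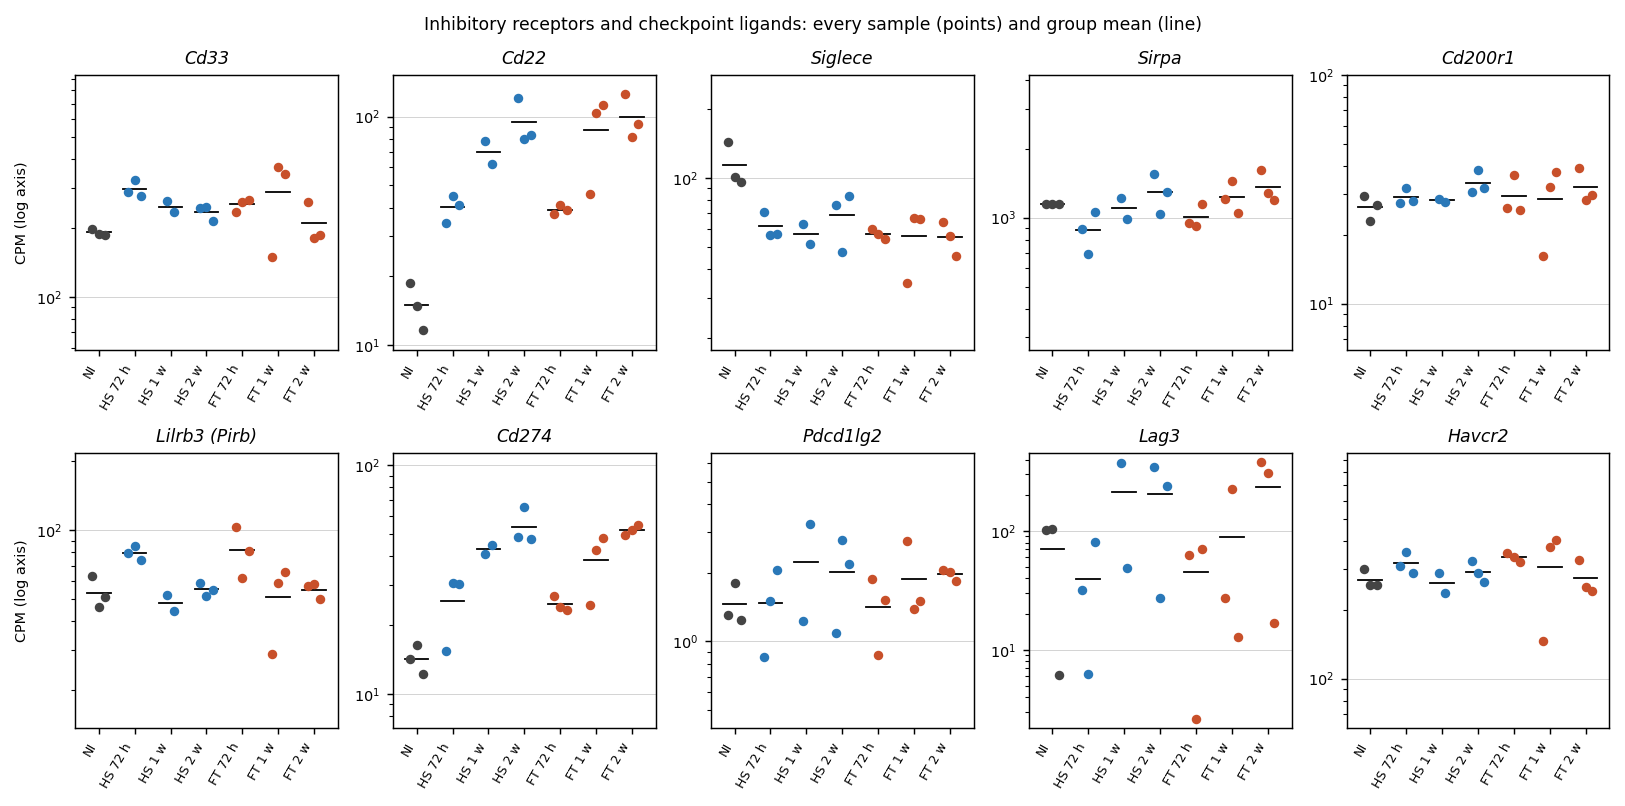
Level of each member in every sample, in CPM on a log axis, for the 7 groups (NI in grey, HS in blue, FT in orange), with points for samples and a line for the group mean. *Cd22* climbs from 11.6 to 18.8 CPM in NI to 81.2 to 126 CPM at 2 weeks after FT, *Siglece* lies highest in NI, and *Lag3* spreads from 2.63 to 379 CPM.

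*Cd22* encodes a siglec best known for restraining B cell receptor signaling, and it lies on chromosome 7 (GRCm38, 30865402 to 30880342, minus strand). In NI it had 18.8, 14.8 and 11.6 CPM. At 72 h it had 34.2, 44.8 and 41.2 CPM after HS, and 37.3, 40.9 and 39.1 CPM after FT. Every 72 h sample thus lay above every NI sample. At 1 week it had 78.2 and 62.1 CPM after HS, and 45.7, 104 and 112 CPM after FT. At 2 weeks it had 121, 80.0 and 83.5 CPM after HS, and 126, 81.2 and 92.7 CPM after FT. No injured sample of any group overlapped NI.

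Relative to NI, *Cd22* rose at 72 h by 1.40 on the log2 scale after HS, with a standard error of 0.27 and a limma adjusted p = 0.000556, and by 1.37 after FT, with the same standard error and an adjusted p = 0.000758. At 1 week it was 2.20 after HS (adjusted p = 0.000107) and 2.42 after FT (adjusted p = 3.47e-06). At 2 weeks it reached 2.62 after HS (adjusted p = 1.06e-06) and 2.69 after FT (adjusted p = 5.07e-07). *Cd22* was DE higher in all 6 comparisons. It was still so when the 8 libraries low in *Rpl13* were left out, with log2 fold changes between 1.15 and 2.60, and when low *Rpl13* was a term of the fit. With every column scaled to 1 total, which moved the median over all genes by -0.19 to -0.42, the 72 h rise was 0.90 (HS) and 0.91 (FT), under 2-fold, and relative to the median of all genes it was 1.42 and 1.39.

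*Cd22* also differed between times. From 72 h to 2 weeks it rose by 1.22 on the log2 scale after HS (limma adjusted p = 0.00557) and by 1.32 after FT (adjusted p = 0.0038), and all samples at 2 weeks lay above all samples at 72 h. Among the 9 members, 2 were DE between 2 weeks and 72 h after HS, against 4.74% of all genes, and 2 after FT, against 3.81%. From 72 h to 1 week *Cd22* rose by 1.04 after FT (adjusted p = 0.0242), the only member DE there, against 3.44% of all genes. This call was lost, with log2 fold changes between 0.81 and 1.07, when any of the 3 libraries at 72 h or replicate 2 or 3 at 1 week was left out (adjusted p between 0.0541 and 0.109). After HS the same step was 0.80 (adjusted p = 0.0964) and 0 of 9 members were DE, against 6.03% of all genes. There, 2 members had an unadjusted p under 0.05 in limma, in both edgeR tests and in DESeq2.

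Ordered by mean, the levels of *Cd22* were 15.1 ± 3.59 CPM (SD, n = 3) in NI, 39.1 ± 1.79 CPM (n = 3) 72 h after FT, 40.0 ± 5.38 CPM (n = 3) 72 h after HS and 70.1 ± 11.4 CPM (n = 2) 1 week after HS. Above these were 87.2 ± 36.2 CPM (n = 3) at 1 week after FT, 94.8 ± 22.8 CPM (n = 3) at 2 weeks after HS and 99.8 ± 23.0 CPM (n = 3) at 2 weeks after FT. Among neighbours in this order, only the steps from NI to 72 h after FT and from 72 h to 1 week after HS had samples that did not overlap, and only the first of these passed the test. Over all 20 samples, the genes most like *Cd22* by Pearson correlation of log2 values were *Chst2* (0.97), *Axl* (0.97) and *Ptchd1* (0.97), of 14050 genes searched. These points share the groups and the injury, so the values are a description.

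Because *Cd22* is a B cell gene in other tissues, the levels of B cell markers are given beside it. Of 12 B cell markers, 10 were in the table, and they summed to between 40.4 and 48.5 CPM in NI and between 39.2 and 60.8 CPM in the injured samples. *Cd79b* made up 78.4% of that sum. The defining markers *Ms4a1*, *Cd79a* and *Pax5* stayed at or below 2.89 CPM in every sample, and 0 of the 10 were DE in any comparison with NI by limma. At an unadjusted p under 0.05 the count was 0 to 3 of 10, the edgeR quasi-likelihood test and DESeq2 called 0, and the edgeR likelihood ratio test called 1 at 72 h after HS. At 2 weeks after FT, where *Cd22* was highest, the sum lay between 39.2 and 42.5 CPM. The monocyte and macrophage markers (13 of 14 in the table) did move: they summed to between 78.1 and 90.7 CPM in NI, between 630 and 1358 CPM at 72 h and between 274 and 569 CPM later. *Fn1* alone made up 68.8% of that sum over all samples. Neither the part of B cells nor that of monocyte-derived cells in the change of *Cd22* was tested.

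*Cd274* (chromosome 19, 29367455 to 29388095, plus strand), which encodes the checkpoint ligand PD-L1, had 14.2, 16.3 and 12.2 CPM in NI. At 72 h it had 15.4, 30.4 and 30.1 CPM after HS, and 26.8, 24.0 and 23.3 CPM after FT. Replicate 1 at 72 h after HS overlapped NI, and the other 5 samples at that time lay above NI. At 1 week it had 40.8 and 44.6 CPM after HS, and 24.5, 42.6 and 47.8 CPM after FT. At 2 weeks it had 48.3, 65.6 and 47.6 CPM after HS, and 49.7, 52.2 and 54.6 CPM after FT. All samples at 1 and 2 weeks lay above all NI samples.

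At 72 h the difference of *Cd274* from NI on the log2 scale was 0.76 in HS (95% interval 0.24 to 1.27, limma adjusted p = 0.0274) and 0.78 in FT (0.27 to 1.30, adjusted p = 0.025), under the 2-fold limit in both. Without replicate 1 at 72 h after HS it was 1.07 (adjusted p = 0.0029) and DE. At 1 week it was 1.56 after HS (adjusted p = 0.00167) and 1.35 after FT (adjusted p = 0.00119), and at 2 weeks 1.88 after HS (adjusted p = 3.07e-05) and 1.85 after FT (adjusted p = 2.72e-05), all DE. With the 8 libraries low in *Rpl13* left out, the change at 1 week after HS was 1.39 with 1 sample in that group, which is then assumed to vary like the others, and the adjusted p was 0.0529. From 72 h to 2 weeks *Cd274* rose by 1.12 after HS (adjusted p = 0.00533) and by 1.07 after FT (adjusted p = 0.0107). The step after HS was 0.80 (adjusted p = 0.0565) without replicate 1 at 72 h and 0.97 (adjusted p = 0.0327), under 2-fold, without replicate 2 at 2 weeks. The step after FT was 1.01 (adjusted p = 0.0504) with the 8 libraries left out.

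The genes most like *Cd274* over the 20 samples were *Axl* (0.95), *Ptchd1* (0.94) and *H2-M3* (0.93), by the same measure. Of 9 dendritic cell markers, 1 was DE higher at 72 h after each injury, where 13.4% (HS) and 12.2% (FT) of all genes were DE. At 1 and 2 weeks 2 were DE higher after each injury, against 2.18% to 4.88% of all genes. These were *Bst2*, in all 6 comparisons, and *Itgax*, in 4. The list summed to between 982 and 1621 CPM, with *Siglech*, which averaged 1249 CPM in NI, at 78.9% of the sum. *Flt3*, *Zbtb46*, *Xcr1*, *Clec9a* and *Ccr7* stayed at or below 7.74 CPM in every sample. *Cd209a* ranged from 0.281 to 19.2 CPM over all samples, with a mean of 1.75 CPM in NI. The part of dendritic cells in the change of *Cd274* was not tested.

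*Pdcd1lg2*, which encodes the second ligand of the same receptor, begins 22.8 kb downstream of *Cd274* on chromosome 19 and stayed low. It had between 0.859 and 3.25 CPM, which rested on 3 to 37 reads per sample. Its log2 fold change from NI lay between -0.05 and 0.39 and never passed the test (limma adjusted p between 0.656 and 0.968). At this depth the interval at 2 weeks after FT reached from -0.37 to 1.06, so a 2-fold change could not be told from none. Per kilobase of exon, *Cd274* had 3.93 ± 0.57 CPM per kb in NI and *Pdcd1lg2* 0.741 ± 0.155 CPM per kb (SD, n = 3), without overlap of the samples. The receptor of both, *Pdcd1*, was itself DE higher in all 6 comparisons. It averaged 25.6 ± 6.25 CPM in NI and 146 ± 55.7 CPM 2 weeks after FT (SD, n = 3 each).

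*Siglece* (chromosome 7, 43651070 to 43660161, minus strand) encodes a siglec of mouse myeloid cells with inhibitory tail motifs. It had 144, 101 and 96.2 CPM in NI. At 72 h it had 71.1, 56.4 and 56.8 CPM after HS, and 59.5, 57.0 and 54.3 CPM after FT. At 1 week it had 62.8 and 51.2 CPM after HS, and 34.8, 66.8 and 65.9 CPM after FT. All of these samples lay below all NI samples. At 2 weeks it had 76.1, 47.5 and 83.2 CPM after HS, and 64.0, 55.8 and 45.4 CPM after FT, again without overlap with NI.

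The log2 fold change of *Siglece* from NI was close to the 2-fold limit throughout. At 72 h it was -0.97 after FT (limma adjusted p = 0.00581) and -0.87 after HS (adjusted p = 0.0113), both under 2-fold. The change at 72 h after FT was called in 8 alternative settings, among them both edgeR tests and the fit without the fold limit, and not in 11. FT gave -1.06 (adjusted p = 0.00844) in the first week and -1.03 (adjusted p = 0.00839) in the second, and both were DE. HS gave -0.97 (adjusted p = 0.0603) and -0.74 (adjusted p = 0.095) at those times, and neither was DE. FT and HS did not differ by the test at any time, with differences between -0.29 and -0.08 and 95% intervals between -0.80 and 0.48. Without replicate 1 of FT 1 week the change there was -0.75 (adjusted p = 0.0291), and without replicate 1 of NI it was -0.87 at 1 week and -0.85 at 2 weeks (adjusted p = 0.0643 in both). With the 8 libraries low in *Rpl13* left out, the change at 1 week after FT was -0.85 (adjusted p = 0.078), and with low *Rpl13* as a term it was -0.94 (adjusted p = 0.00454), under 2-fold. Without replicate 3 of FT 2 weeks the change at 2 weeks after FT was -0.90 (adjusted p = 0.0534). With every column scaled to 1 total, *Siglece* was DE lower in all 6 comparisons, between -1.06 and -1.44, and relative to the median of all genes the change on that scale lay between -0.77 and -1.08.

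The genes most like *Siglece* over the 20 samples were *Cd1d1* (0.86), *Susd3* (0.85) and *Ptgs1* (0.84). *Siglece* and *Cd33* are neighbours on chromosome 7, 107 kb apart, and their means lay on opposite sides of NI in every comparison. *Cd33*, the siglec best known as a risk gene of human Alzheimer's disease, had 199, 189 and 186 CPM in NI and between 278 and 325 CPM at 72 h after HS, without overlap. Its log2 fold change there was 0.63 (95% interval 0.13 to 1.13, limma adjusted p = 0.0574). In the other 5 comparisons with NI it lay between 0.11 and 0.48 (adjusted p between 0.23 and 0.864). Over all samples it ranged from 149 CPM, in replicate 1 of FT 1 week, to 370 CPM in replicate 2 of the same group. On the scale of 1 total its change at 72 h and 2 weeks after FT and at 2 weeks after HS turned to -0.06, -0.29 and -0.03, none of them DE.

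**Figure D2:**
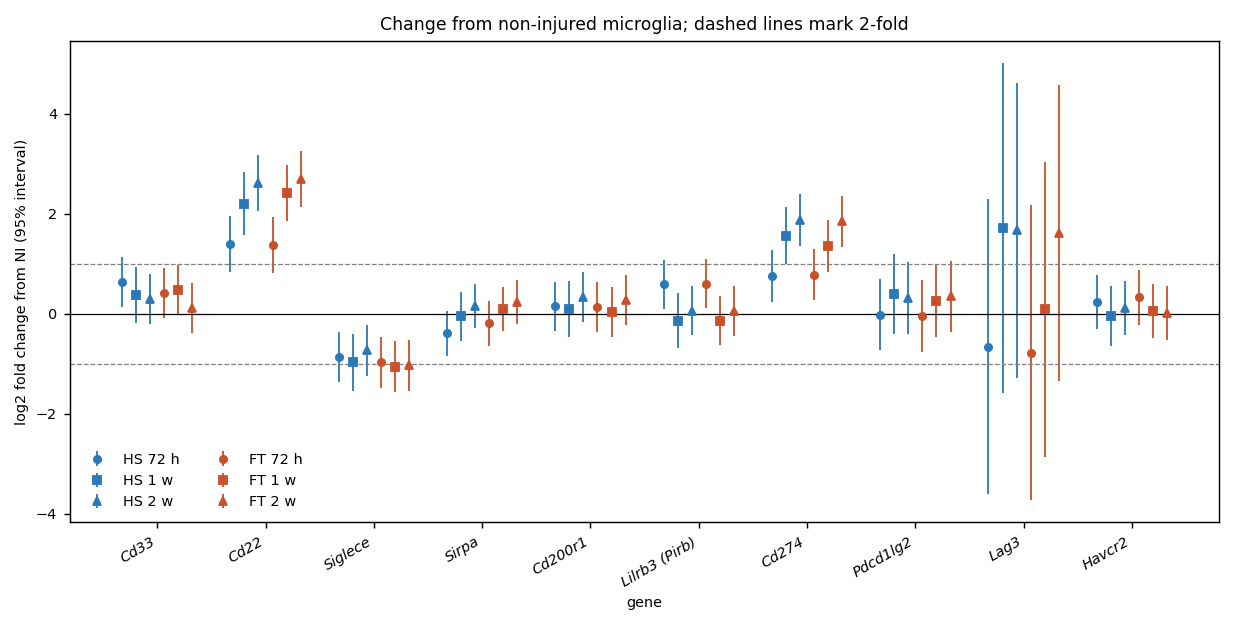
Log2 fold change from NI of each member on the log2(CPM + 0.5) scale, with 95% intervals from limma, for HS (blue) and FT (orange) at 72 h (circles), 1 week (squares) and 2 weeks (triangles), and dashed lines at 2-fold. *Cd22* lies above 1 in all 6 comparisons, *Cd274* in 4, *Siglece* near -1, and the intervals of *Lag3* reach from -3.73 to 5.02.

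*Sirpa*, the receptor for the *Cd47* signal that restrains phagocytosis, was the most abundant member per length in every group, with 233 ± 0.46 CPM per kb in NI (SD, n = 3). It had 1147, 1144 and 1143 CPM in NI and between 693 and 1612 CPM in injured samples. At 72 h after HS it was lower in all 3 samples, with a log2 fold change of -0.40 (95% interval -0.84 to 0.04, limma adjusted p = 0.17). In the other 5 comparisons it lay between -0.20 and 0.24 (adjusted p between 0.531 and 0.97). From 72 h to 2 weeks after HS the difference was 0.55 (unadjusted p = 0.0162, adjusted p = 0.101 in limma). Its ligand *Cd47* had 50.3 ± 1.04 CPM in NI (SD, n = 3) and 34.3 ± 5.96 CPM at 72 h after HS, a log2 fold change of -0.56 (adjusted p = 0.021), under 2-fold.

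*Cd200r1*, the receptor through which the neuronal protein encoded by *Cd200* restrains myeloid cells, ranged from 16.1 to 39.1 CPM. Its log2 fold change from NI lay between 0.03 and 0.34 (limma adjusted p between 0.55 and 0.964), and all 6 intervals lay between -0.46 and 0.84, inside the 2-fold limits. *Cd200r4*, a related receptor that couples to the activating adaptor encoded by *Tyrobp*, was DE higher in all 6 comparisons, from 1.53 ± 0.38 CPM in NI (SD, n = 3) to 15.3 ± 2.92 CPM at 2 weeks after HS (SD, n = 3). *Cd200* itself had 3.71 ± 1.25 CPM in NI and was not DE in any of the 6.

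*Havcr2*, which encodes the receptor TIM3, was the second most abundant member per length in NI, with 99.6 ± 9.22 CPM per kb (SD, n = 3). It had 300.0, 256 and 257 CPM in NI and between 146 and 405 CPM in injured samples, both extremes from FT 1 week. Its log2 fold change from NI lay between -0.05 and 0.32 (limma adjusted p between 0.388 and 0.993), and all 6 intervals lay between -0.66 and 0.87, inside the 2-fold limits. The gene of its ligand galectin 9, *Lgals9*, rose at 72 h, with a log2 fold change of 1.35 after HS (adjusted p = 3.5e-05) and 1.22 after FT (adjusted p = 0.000112).

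*Pirb*, a receptor for major histocompatibility complex class I, could be followed only as *Lilrb3*, a symbol that the RefSeq table lists as its synonym, and genes of this family share near-identical sequence, so its counts are uncertain. Its 3 NI samples had 63.4, 46.1 and 50.8 CPM. At 72 h, HS samples had 79.6, 85.7 and 74.4 CPM, and FT samples 103, 61.9 and 81.3 CPM. The samples after HS lay above NI, and those after FT overlapped it. The log2 fold changes were 0.59 (95% interval 0.09 to 1.08, limma adjusted p = 0.0697) and 0.60 (0.11 to 1.09, adjusted p = 0.071). At 1 and 2 weeks they lay between -0.14 and 0.06.

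Full transection and hemisection were compared at each time to ask whether severity changes these genes. None of the 9 members was DE by limma at 72 h, 1 week or 2 weeks, where 0.0% of all genes were DE at each time. The count of members at an unadjusted p under 0.05 was also 0 at each time, by limma, by both edgeR tests and by DESeq2. Leaving out *Lag3*, the differences stayed within 0.29 on the log2 scale in either direction at all 3 times. In order of time, FT minus HS of *Cd22* was -0.03 (95% interval -0.59 to 0.53), 0.22 (-0.41 to 0.84) and 0.07 (-0.49 to 0.64). For *Cd274* it was 0.03 (-0.49 to 0.54), -0.21 (-0.79 to 0.36) and -0.03 (-0.54 to 0.48). These intervals exclude a 2-fold difference for both genes at each time. From 1 to 2 weeks no member was DE either, against 0.0119% of all genes after HS and 0.0714% after FT, and 0 members had an unadjusted p under 0.05 by limma, edgeR or DESeq2.

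*Lag3* (chromosome 6, 124904361 to 124911705, minus strand), which encodes a relative of CD4 that binds major histocompatibility complex class II, was not DE in any comparison with all 20 samples and no *Rpl13* term in the fit. In NI it had 103, 103 and 6.14 CPM. At 72 h it had 32.2, 6.22 and 80.6 CPM after HS, and 62.7, 2.63 and 70.6 CPM after FT. In each of these groups 1 sample lay far below the others. At 1 week it had 375 and 49.2 CPM after HS, and 27.5, 227 and 12.9 CPM after FT. At 2 weeks it had 344, 27.4 and 238 CPM after HS, and 379, 307 and 16.9 CPM after FT. Every injured group overlapped NI.

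Its log2 fold change from NI lay between -0.78 and 1.72 with standard errors of 1.42 to 1.59 (limma adjusted p between 0.606 and 0.987). The SD of *Lag3* within groups was 2.21 on the log2 scale, the highest of 14051 genes with a mean of at least 1 CPM, against a median of 0.316. The SD of *Cd22* was 0.37, and that of *Cd33*, *Siglece*, *Cd274* and *Cd200r1* lay between 0.31 and 0.33. The other genes with a wide spread followed *Lag3*: *Fth1*, which encodes the ferritin heavy chain, ranked second (SD 1.93) and *Rpl13* ranked the fourth (SD 1.76). These genes were chosen after their values were seen. The deviations from the group means correlated with those of *Lag3* at 0.98 for *Cyp4f13*, 0.98 for *Bmyc*, 0.97 for *0610040J01Rik*, 0.97 for *Fth1* and 0.97 for *Rpl13* (Pearson, 20 samples of 7 groups, each value sharing a library with its partner). In all 7 groups the sample lowest in *Lag3* was also lowest in *Fth1*, *Rpl13* and *Cyp4f13*. Among the members, the correlation was 0.76 for *Sirpa* and 0.51 for *Siglece*, and between -0.19 and 0.35 for the rest.

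**Figure D3:**
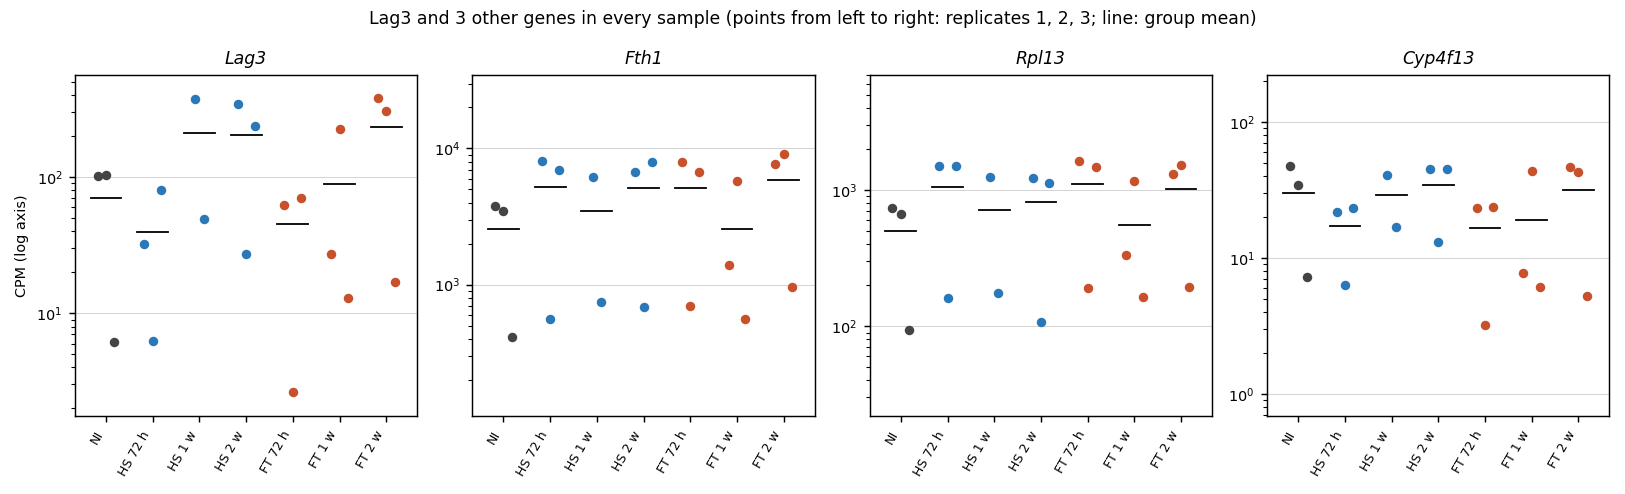
Level of *Lag3* and of *Fth1*, *Rpl13* and *Cyp4f13* in every sample, in CPM on log axes that span the same number of decades, with replicates from left to right and a line for the group mean. In each group the sample lowest in *Lag3* is lowest in the other 3 genes, and the spread is widest for *Lag3*.

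Within the 12 libraries with higher *Rpl13*, *Lag3* had 103 and 103 CPM in NI and 32.2 to 80.6 CPM at 72 h. In the same set the 1 week libraries had 375 CPM (HS) and 227 CPM (FT), and those of 2 weeks 238 to 379 CPM. The 1 and 2 week libraries thus lay above the NI and 72 h libraries. Within the 8 libraries with low *Rpl13*, it had 6.14 CPM in NI and 2.63 and 6.22 CPM at 72 h, and 12.9 to 49.2 CPM at 1 and 2 weeks, in the same order. With the 8 libraries left out of the limma fit, *Lag3* was DE in 4 of the 6 comparisons with NI: lower at 72 h after HS (-1.01 on the log2 scale) and higher at 1 and 2 weeks after HS (1.86 and 1.47) and at 2 weeks after FT (1.72). With low *Rpl13* as a term it was DE higher at 1 and 2 weeks after HS (2.33 and 1.67) and after FT (1.31 and 1.61), and not DE at 72 h. From 72 h to 1 week and to 2 weeks it was DE higher after both injuries in both fits, by 1.76 to 3.00. The groups at 1 week held 1 library each in the first of these fits. *Rpl13* was chosen after the data were seen and moved with *Lag3*, so these calls and values are a description and no p-value is given. T and NK cell markers, of which 14 of 16 were in the table, summed to between 13.3 and 24.7 CPM in all samples, and *Cd3e*, *Cd4*, *Cd8a* and *Lck* each stayed at or below 3.21 CPM. Of the 14, 1 was DE higher at 72 h after FT (*Nkg7*, at most 5.75 CPM in any sample), where 12.2% of all genes were DE. *Lag3* exceeded that sum in 15 of the 20 samples, and every sample where it did not was low in *Rpl13*. The part of T and NK cells in the level of *Lag3* was not tested. What the 8 libraries share was not tested.

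Other inhibitory receptors of myeloid cells give the setting of the members. Of 30 in the table, HS gave 9 DE higher and 0 lower at 72 h, 8 and 1 a week after injury, then 10 and 1. FT gave 10 and 1, 8 and 2, and 11 and 2. Of all genes, 13.4%, 2.18% and 3.23% were DE at these times after HS, and 12.2%, 4.05% and 4.88% after FT, and the counts of the lists that follow stand beside the same shares. The median log2 fold change of the list lay between 0.20 and 0.52, and that of all genes between -0.11 and 0.02. *Lilrb4*, an inhibitory immunoglobulin-like receptor, rose from 36.2 ± 5.46 CPM in NI (SD, n = 3) to 336 ± 84.6 CPM at 72 h after HS (SD, n = 3). The log2 value of this rise was 3.18 (limma adjusted p = 1.47e-08), but *Lilrb4* shares near-identical sequence with *Gp49a*, so its level is uncertain. *Gp49a* is counted in the same list and was also DE higher in all 6 comparisons, so the counts above may hold 1 signal under both names. *Pdcd1* is counted both in this list and among the ligands and partners. *Cd72*, a C-type lectin with inhibitory tail motifs, rose from 30.7 ± 7.46 CPM to 285 ± 69.7 CPM in the same comparison. *Cd300lf*, a lipid-binding inhibitory receptor, rose from 5.60 ± 0.82 CPM to 41.7 ± 3.22 CPM.

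*Cd244*, a receptor of the signaling lymphocyte activation family that can inhibit or activate, differed in its course from *Cd22*. From 7.34 ± 2.20 CPM in NI it reached 59.8 ± 5.83 CPM 72 h after HS, and 27.0 ± 2.62 CPM was left by 2 weeks (SD, n = 3 each). Its log2 fold changes from NI at these times were 2.97 and 1.84 for HS, and 3.03 and 1.65 for FT. *Pecam1*, an adhesion receptor that is also an endothelial marker, was DE lower in 4 comparisons, with 16.0 ± 2.05 CPM in NI and 5.93 ± 1.22 CPM at 2 weeks after FT (SD, n = 3 each). The 6 endothelial markers summed to between 36.9 and 49.5 CPM in NI and between 21.1 and 55.2 CPM in injured samples. *Siglecg*, another inhibitory siglec, was DE lower after FT at all 3 times, at 4.74 ± 0.94 CPM in NI and between 1.02 and 1.79 CPM on average after FT. Its log2 fold changes after HS, between -1.12 and -0.88, were not DE.

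**Figure D4:**
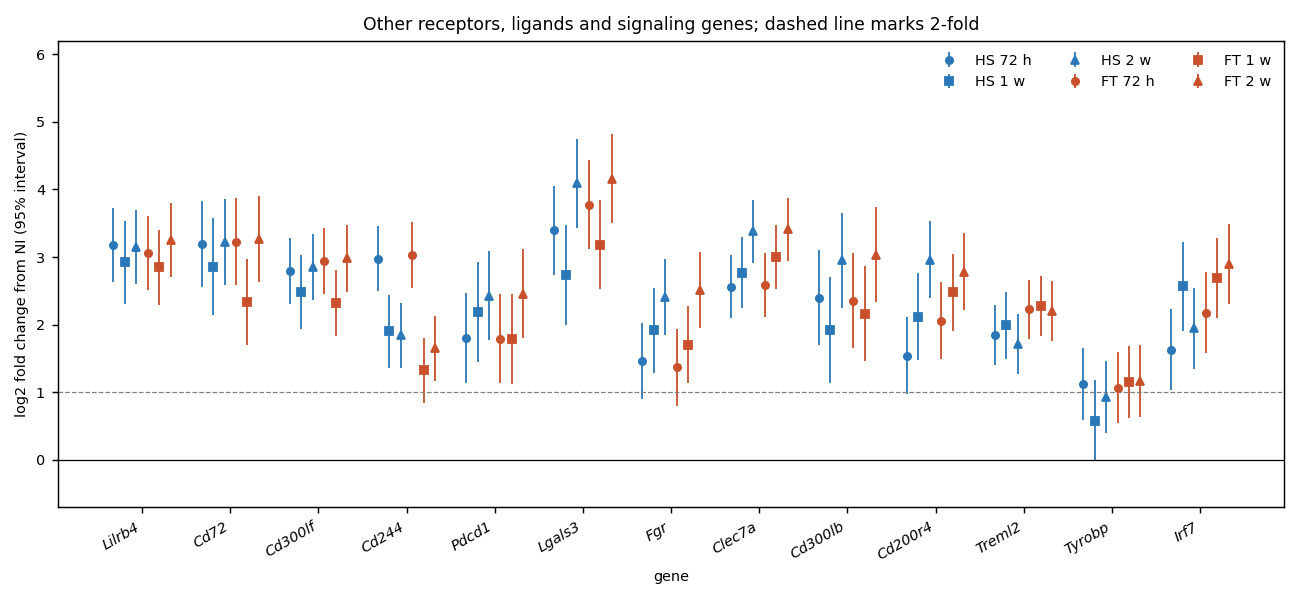
Log2 fold change from NI on the log2(CPM + 0.5) scale, with 95% intervals from limma, of receptors, ligands and signaling genes named in the text that were DE higher in at least 4 of 6 comparisons, for HS (blue) and FT (orange) at 72 h (circles), 1 week (squares) and 2 weeks (triangles). All lie above the dashed 2-fold line in all 6 comparisons except *Tyrobp* at 1 and 2 weeks after HS. *Pecam1*, which was lower in 4 comparisons, is not drawn.

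Among ligands and partners of the members, 19 of 20 were in the table. After HS, 5, 3 and 3 were DE higher at 72 h, 1 week and 2 weeks, and after FT 5, 3 and 5, with 1 lower (*Cd80*, at 72 h after FT). The share of all genes DE was 13.4%, 2.18% and 3.23% after HS, and 12.2%, 4.05% and 4.88% after FT. *Lgals3*, which encodes galectin 3, had the highest mean change of them, from 8.13 ± 2.22 CPM in NI to 151 ± 25.5 CPM at 2 weeks after FT (SD, n = 3 each), which is 4.16 on the log2 scale (limma adjusted p = 1.18e-08). The major histocompatibility complex class II genes *H2-Aa* and *H2-Ab1*, ligands of *Lag3*, were not DE in any of the 6, but their errors were wide. At 1 week after FT the log2 fold change of *H2-Aa* was -1.32 (standard error 0.41, limma adjusted p = 0.0551). Its samples there had 85.1 to 218 CPM, below the 316 to 372 CPM in NI. After HS, *H2-Aa* changed by -1.06 at 72 h and -1.04 at 1 week. *H2-Ab1* changed by -1.23 at 1 week after FT (standard error 0.55, adjusted p = 0.225). At 2 weeks after HS both were higher, by 0.47 and 0.99. A 2-fold change was thus not excluded. Of the 23 genes of sialic acid synthesis and transfer, which make the ligands of the siglecs, 1 was DE higher at 72 h after each injury (*Nans*). At that time 13 (HS) and 10 (FT) had an unadjusted p under 0.05 in limma. At the later times 0 were DE by limma, edgeR or DESeq2, and 2 to 7 had an unadjusted p under 0.05 in limma. All ligand levels, those of *Cd47*, *Cd200* and *Lgals9* included, are from the sorted cells, and ligands on neighbouring cells were not measured.

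The inhibitory signal is carried by phosphatases, kinases and adaptors. Of 18 in the table, 2 were DE higher and 1 lower at 72 h after HS, and 1 was higher and 0 lower in each of the other 5 comparisons. The phosphatase genes *Ptpn6*, *Ptpn11* and *Inpp5d* had log2 fold changes between -0.48 and 0.45 and never passed the test. The gene DE higher in all 6 was *Fgr*, a kinase of the Src family, with 15.1 ± 3.07 CPM in NI and 90.1 ± 28.2 CPM at 2 weeks after FT (SD, n = 3 each).

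Activating partners are opposed by the inhibitory receptors. Of 21 in the table, 11 (HS) and 12 (FT) were DE higher at 72 h. The count was 5 for both injuries at 1 week, and 4 (HS) and 5 (FT) at 2 weeks, with 0 lower. More of all genes were DE at 72 h as well, 13.4% (HS) and 12.2% (FT) against 2.18% to 4.88% later. *Clec7a*, the beta-glucan receptor dectin, rose from 75.9 ± 10.8 CPM in NI to 809 ± 82.0 CPM at 2 weeks after FT (SD, n = 3 each). *Cd300lb*, an activating relative of *Cd300lf*, rose from 5.11 ± 0.99 CPM to 45.8 ± 11.2 CPM in the same comparison. *Treml2*, of the Trem family, rose from 5.89 ± 0.64 CPM to 29.8 ± 9.42 CPM. *Tyrobp*, the adaptor of many activating receptors, was DE higher in 4 comparisons and had 1758 ± 290 CPM in NI.

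Of 19 interferon and JAK-STAT genes, which include known inputs to *Cd274*, 2 or 3 were DE higher in each comparison and 0 lower. *Irf7*, an interferon regulatory factor, rose from 18.7 ± 3.60 CPM in NI to 59.0 ± 10.8 CPM by 72 h of HS and 146 ± 49.3 CPM 2 weeks after FT (SD, n = 3 each).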

How the data were processed

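RNA-Seq of sorted microglia was analysed from 1 deposited table. Per the submitters' processing notes and the study's methods, the authors mapped reads with TopHat2 2.0.9 to mm10, counted them per gene with HTSeq 0.5.4p3, removed genes that did not reach 10 counts in 2 or more replicates, and scaled the libraries by their size in edgeR 3.3.6. The signal values that the authors deposited carry no stated unit. All 336200 values (100%) were whole multiples of 1 step per column within 0.001 step, so each column was scaled by 1 constant, and whole reads were recovered. The values were taken as CPM of the library size times its edgeR factor, which was not checked. Column totals ranged from 777426 to 1202186. Strandedness and sequencing batches are not given in the sources used here.

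limma 3.58.1 (R 4.3.3) was fitted to log2(CPM + 0.5) of all 16810 genes and 20 samples with 1 mean per group and an intensity trend, and p-values were adjusted over all genes. The code was tested on simulated data. Alternatives were DESeq2 1.42.0 on those reads, both tests of edgeR 4.0.16 (quasi-likelihood and likelihood ratio), other values added, a filter on low values, other scalings, no fold limit, only the compared groups, a replicate block and leaving out samples. Fits with the libraries under 400 CPM of Rpl13 left out, or with that class as a term, were added after seeing the data. Of the 11 compared pairs of groups with 3 same-numbered samples, only HS and FT at 72 h deviated together (every correlation over 0.1). The other 4 pairs share 2 numbers, too few for this rule, though both correlations were over 0.1 between HS 1 week and each of HS 72 h and HS 2 weeks. The number of members called between HS and FT at 72 h was 0 with and without the block.

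The members and lists were chosen with earlier results of these data known. All members were named, and genes of the ligand, receptor, signaling, activating, interferon and sialic acid lists where DE the same way in at least 4 of 6 comparisons with NI, up to 5 per list by mean change. Some genes that this rule names are not reported here. Cd80, Cd200, Cd47, H2-Aa, H2-Ab1, Lgals9, Nans, Siglecg, Ptpn6, Ptpn11, Inpp5d and the genes moving with Lag3 were named after their values were seen. Gene positions are from GENCODE (GRCm38), and promoter windows from RefSeq (GRCm38.p6).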

Additional observations from a re-analysis of the deposited data

How the results depend on the processing

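Of 281 recomputed counts of DE members over the 15 comparisons, 258 stayed within 1.5 times the count given, and *Cd22* stayed DE against NI at 1 and 2 weeks under every alternative. At 72 h the count of 1 after HS became 3 without the 2-fold limit and 2 with the libraries low in *Rpl13* left out, the second being *Lag3*, which was lower. The count of 1 after FT became 2 by either edgeR test and with those libraries left out, and 3 without the 2-fold limit. With columns scaled to 1 total, *Cd22* at 72 h fell under 2-fold (0.90 after HS, 0.91 after FT), and the count between 1 week and 72 h after HS rose from 0 to 2. It was 1 with the low *Rpl13* libraries left out or as a term. Between 1 week and 72 h after FT the count of 1 became 0 with only those 2 groups fitted and 2 under both *Rpl13* alternatives. Leaving out 1 sample gave counts of 1 to 2 at 72 h after either injury, 1 to 2 between 2 weeks and 72 h after HS, and 0 to 1 between 1 week and 72 h after FT. Replicate numbers paired the samples in 1 of the 11 comparisons with 3 pairs, and the other 4 have 2 pairs and were not judged. In 1 of the 11 every sample correlated best with its own number. With the replicate block, no count changed (1, 2 and 2 after HS, 1, 3 and 3 after FT against NI).

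Fold changes were followed under every alternative for *Cd22*, *Cd274*, *Siglece* and *Lag3*, and of these only *Lag3* changed direction. On the scale of 1 total other members that were not called changed sign in some comparisons too: against NI, *Cd33* lay between -0.29 and 0.16, *Sirpa* between -0.91 and -0.16, *Cd200r1* between -0.36 and 0.02, *Pdcd1lg2* between -0.40 and 0.24, and *Havcr2* between -0.39 and -0.15. Under both *Rpl13* alternatives *Lag3* was called at 2 weeks after HS and after FT. With the libraries left out, the groups at 1 week held 1 library each. *Rpl13* was chosen after the data were seen. *Lag3* moved with it, so these calls and the counts that hold them are a description. With 1 sample left out, its log2 fold change lay between -1.99 and 0.31 at 72 h after HS (0.31 without replicate 2 of that group), and between -1.23 and 0.94 at 1 week after FT (-1.23 without replicate 3 of NI, -1.10 without replicate 2 of FT). With columns scaled to 1 total the latter was -0.25. Between 1 week and 72 h after FT it lay between -0.61 and 1.72 (-0.61 without replicate 2 at 72 h, -0.32 without replicate 2 at 1 week). Depth limits *Pdcd1lg2* most, at 3 to 37 reads per sample.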
